A study of Homo sapiens with 2 samples.

Results

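The enzymes that add or remove methyl and acetyl groups on histones were described in SAS, a human oral cancer cell line, from 1 RNA sequencing library of cells carrying an ASC vector and 1 of cells carrying the vector without it. Members were the genes whose symbol follows the naming of the lysine demethylases (KDM), lysine methyltransferases (KMT, SETD, EZH, EHMT, SUV39H), arginine methyltransferases (PRMT), acetyltransferases (KAT, with EP300 and CREBBP), histone deacetylases (HDAC) and sirtuins (SIRT). This gave 77 of the 24124 genes in the deposited table, with 965 of its 134092 transcripts. Of these, 76 are enzyme genes and 1, SETD8P1, is a pseudogene of KMT5A. Per the labels, the control cells carried the lentiviral plasmid pLKO.AS2 and the ASC cells pLKO.AS2_ASC, and the medium of both lines was DMEM with 10% serum, 200 µg/ml G418 and 2 µg/ml puromycin. The labels do not say whether either line is a clone or a pool, and the genotype label of the ASC cells names the cell line where ASC would stand. ASC, encoded by PYCARD, is the adaptor protein of inflammasomes, the complexes that activate caspase-1.

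Histone tails are modified by opposing enzymes, called writers where they add a group and erasers where they remove it. Methylation of lysine 4 or 36 of histone H3 is found mostly on active genes and methylation of lysine 9 or 27 mostly on silent ones, while acetylation accompanies open chromatin. Several members also act outside chromatin: HDAC6 deacetylates tubulin, SETD3 methylates actin, and SIRT3, SIRT4 and SIRT5 work in mitochondria.

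Promoter sequence is shown for the enzyme gene with the lowest ratio of ASC to control among the writers (KMT2E), that with the lowest among the erasers (SIRT6) and that with the highest of all (SUV39H2). The promoters come from RefSeq (GRCh38.p14), which held a promoter for 71 of the 77 members. They were cut at the first start annotated by GENCODE, so that they hold only bases before the gene. That of KMT2E is chr7:105013955-105014178 on the plus strand, that of SIRT6 is chr19:4182605-4182813 on the minus strand, and that of SUV39H2 is chr10:14878616-14878819 on the plus strand. Capitals mark matches, on either strand, to 5 motifs: the GC box GGGCGG, the CCAAT box CCAAT, the E box CACGTG, the palindromic NRF1 site (the third run of capitals in the SIRT6 sequence) and the YY1 core AAGATGGCG.
KMT2E promoter: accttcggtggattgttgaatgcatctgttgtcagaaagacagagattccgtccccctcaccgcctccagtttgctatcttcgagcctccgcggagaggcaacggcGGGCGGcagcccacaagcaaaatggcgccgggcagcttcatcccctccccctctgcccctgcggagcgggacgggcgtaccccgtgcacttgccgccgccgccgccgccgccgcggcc
SIRT6 promoter: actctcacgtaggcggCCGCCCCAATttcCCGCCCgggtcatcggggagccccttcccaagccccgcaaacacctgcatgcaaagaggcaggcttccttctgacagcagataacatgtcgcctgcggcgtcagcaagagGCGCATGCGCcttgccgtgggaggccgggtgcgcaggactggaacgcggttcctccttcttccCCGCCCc
SUV39H2 promoter: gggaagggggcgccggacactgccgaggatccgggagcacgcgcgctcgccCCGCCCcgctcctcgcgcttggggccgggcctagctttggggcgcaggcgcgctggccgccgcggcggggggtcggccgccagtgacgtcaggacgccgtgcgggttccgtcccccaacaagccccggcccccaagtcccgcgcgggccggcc

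The KMT2E sequence holds 1 GC box and 24 CpG dinucleotides at 67.4% GC. The SUV39H2 sequence has 1 GC box, 32 CpG dinucleotides and 80.4% GC. The SIRT6 sequence holds 3 GC boxes, 1 CCAAT box that overlaps the first of them, 1 NRF1 site, 18 CpG dinucleotides and 66.0% GC. A GC box stood in 39.1% of all 27305 promoters at the length of the KMT2E window, in 36.6% at that of SIRT6 and in 35.4% at that of SUV39H2. At the SIRT6 length, 29.7% of all promoters held a CCAAT box and 0.674% the NRF1 site. In the whole window of 300 bases (250 before and 50 after the start), 49 of the 71 members (69.0%) had a GC box, beside 44.6% of all promoters, and the members' median GC content was 66.7% beside 58.3%. The E box stood in 14.1% of the members against 7.43% of all promoters, the NRF1 site in 4.23% against 1.36%, the YY1 core in 9.86% against 1.85%, and the CCAAT box in 32.4% against 35.7%. In the first 224 bases of the window, the length of the KMT2E sequence, 0 of the 71 members held the YY1 core, beside 0.601% of all promoters. These shares describe letters in a window. The members' windows were also richer in GC, and its part in the motif shares was not tested.

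Coding exons are shown for KAT5 and HDAC11, in which both libraries differed in how much of the transcript pool held the exon. The sequences are from GRCh38 with GENCODE release 29, and nothing in them is marked. Exon 5 of 14 of the KAT5 transcript ENST00000377046.7 is chr11:65713348-65713503 on the plus strand, with 156 bases, or 52 codons. Exon 4 of 10 of the HDAC11 transcript ENST00000295757.7 is chr3:13496736-13496852 on the plus strand, with 117 bases, or 39 codons. The lengths of both are multiples of 3.
KAT5 exon: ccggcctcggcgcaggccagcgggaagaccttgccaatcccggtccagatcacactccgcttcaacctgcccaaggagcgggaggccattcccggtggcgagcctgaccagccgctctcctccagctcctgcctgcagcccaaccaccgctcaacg
HDAC11 exon: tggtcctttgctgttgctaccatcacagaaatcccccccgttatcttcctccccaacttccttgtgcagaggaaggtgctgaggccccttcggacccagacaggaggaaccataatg

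The table lists 31426491 reads for ASC and 31289581 for the control. PYCARD stood at 266.5 RPKM (reads per kilobase of transcript, scaled to depth) with the ASC vector and 1.36 with the control vector, which fits both vector labels. Of the markers of squamous epithelium, 7 of 7 were at 1 RPKM or more, with 3 ratios above 0 and 4 below. Among them KRT5 stood at 311.0 and 421.0 RPKM with ASC and in the control, TP63 at 46.0 and 54.5, KRT14 at 82.3 and 61.2 and CDH1 at 82.6 and 65.6. Of the fibroblast and leukocyte markers 0 reached 1 RPKM (PTPRC 0.05 and 0), and of 3 endothelial markers only CDH5 did, at 2.23 and 1.23 RPKM. The library kit does not mark strand, so reads of a member and of an overlapping gene on the other strand cannot be told apart. This concerns 17 members. In bulk RNA, fewer cells of a type and less RNA per cell cannot be told apart either.

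Since each group has 1 library, the conditions are compared without a test. Each gene's ratio is the log2 ratio of ASC to control of its summed RPKM, with 1 RPKM added to each value. Beside it stands the 95% exact binomial interval of the log2 ratio of its reads scaled to depth, which covers counting error only and is on another scale. The comparison covers genes that reached 1 RPKM in at least 1 library, 12471 in all and 72 of the members (40 writers and 32 erasers). KDM4D was compared through its control value only (0.979 RPKM with ASC, 1.28 in the control). The 5 members that were not compared are HDAC9 (0.511 and 0.749 RPKM), KAT2B (0.725 and 0.695), SIRT4 (0.0922 and 0.207), PRMT8 (0.0119 and 0) and the pseudogene SETD8P1 (0.217 and 0.355).

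The histone enzymes differed little between both libraries. None of the 72 passed a 2-fold difference in either direction, where 0.882% of all compared genes did (0.617% higher and 0.265% lower). For 72 genes a count of 0 is close to that share. Only KMT2E passed 1.5-fold, on the lower side, where 1.81% of all compared genes did. On the higher side 0 of 72 passed it, beside 2.38%, and in either direction 4.19% of all compared genes did. The ratios ran from -0.64 (KMT2E) to 0.43 (SUV39H2) with a median of 0.02, against 0.01 for all compared genes. Their standard deviation across genes was 0.19 against 0.29, and the middle of the distribution, from the 10th to the 90th percentile, spanned -0.22 to 0.23 against -0.30 to 0.30. The standard deviation was also 0.19 for the 67 genes of the same pathways described further below. The narrower spread is thus not particular to the members. Counting intervals excluded 0 for 62.5% of the members (24 above and 21 below) and for 55.5% of all compared genes (28.5% above and 27% below). Members above and below 0 were nearly equal in number, 37 and 35, beside 52% of all compared genes above 0.

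**Figure D1:**
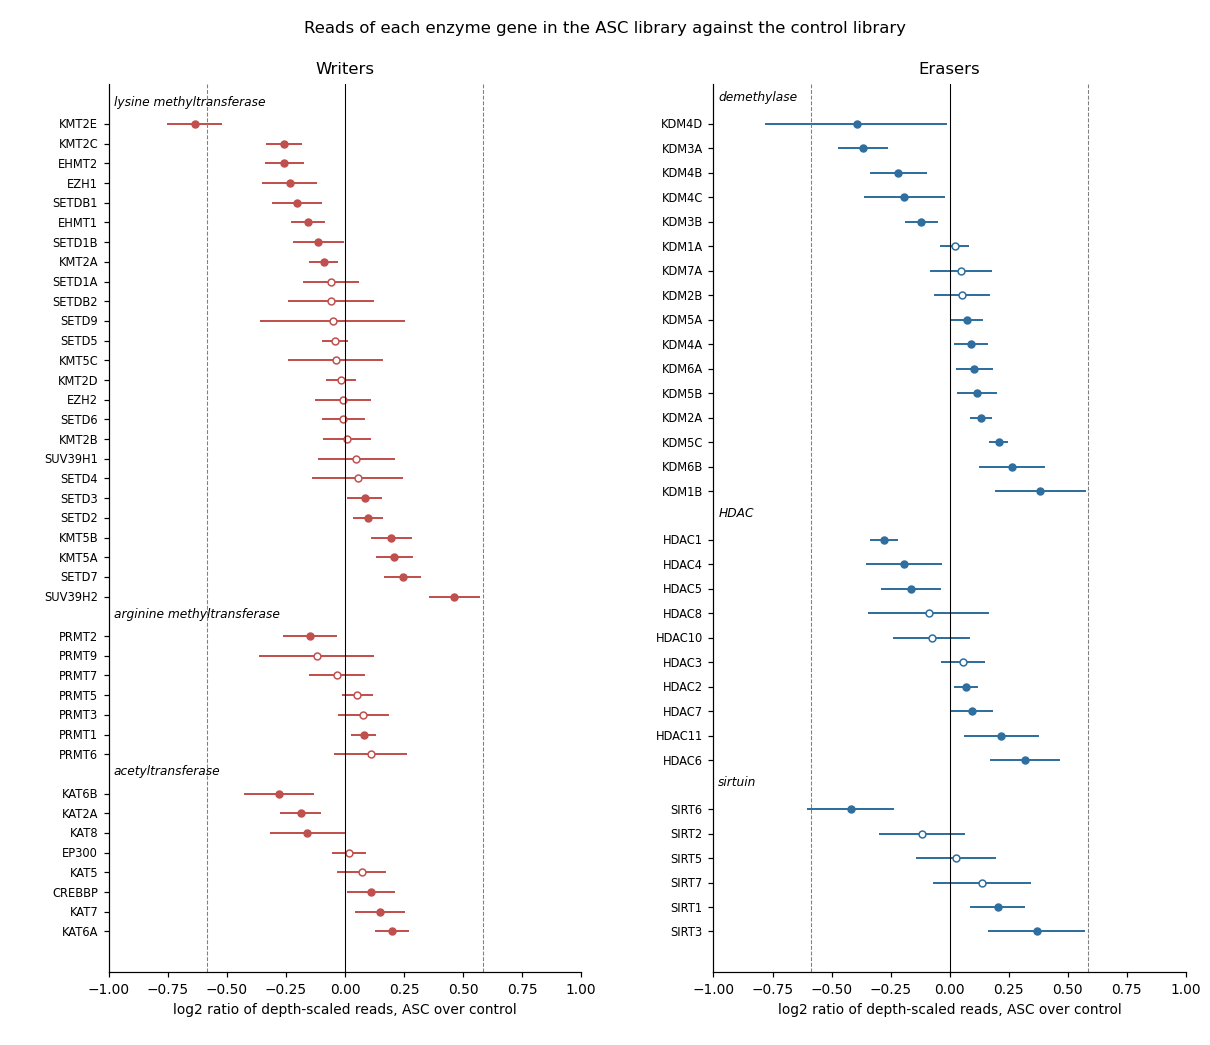
Log2 ratio of depth-scaled reads, ASC over control (x axis), for each compared writer (left) and eraser (right) by class; bars are 95% exact counting intervals, filled points have intervals that exclude 0, and dashed lines mark 1.5-fold. KMT2E lies alone past the dashed line, and each class holds members on both sides of 0.

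**Figure D2:**
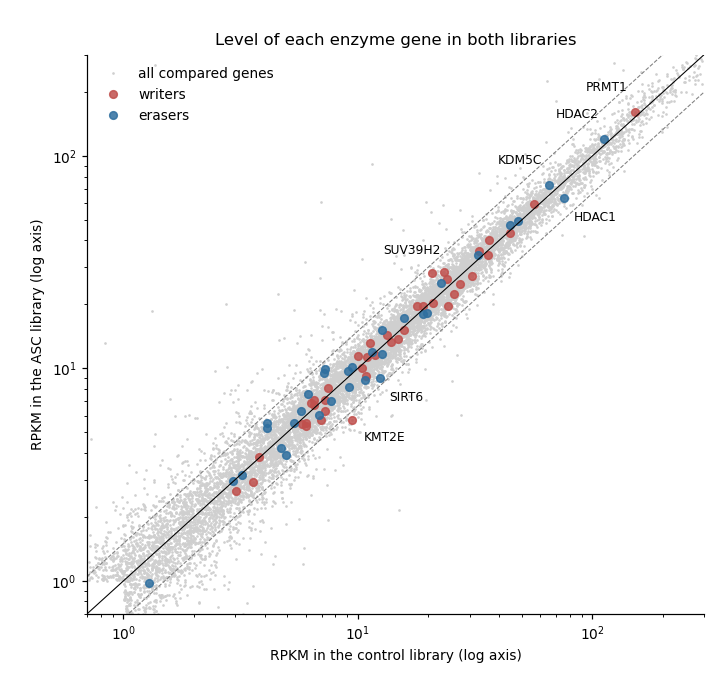
RPKM in the control library (x, log axis) against the ASC library (y, log axis) for all compared genes (grey) with writers in red and erasers in blue; the solid line is equality and dashed lines are 1.5-fold. The enzymes span from KDM4D at 0.979 to PRMT1 at 161.8 RPKM with ASC and stay close to the line of equality, apart from KMT2E below it.

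Among the 25 lysine methyltransferases compared, 10 ratios were above 0 and 15 below, with a median of -0.05. KMT2E, a SET domain protein of active chromatin whose own methyltransferase activity is not established, had 1036 reads and 5.69 RPKM with ASC against 1604 reads and 9.42 RPKM in the control. It was lower in the ASC cells, with a ratio of -0.64 and an interval of -0.75 to -0.52. The gene (ENSG00000005483.20) lies at chr7:105014179-105114361 on the plus strand. Its antisense partner KMT2E-AS1 shares 143 exon bases with it and stood at 20 and 36 reads, and SRPK2, which shares 98 exon bases, at 20.1 and 19.6 RPKM.

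Genes around KMT2E also leaned to lower values in the ASC library. The nearest 50 compared genes on chromosome 7, all within 3.85 Mb, had a median ratio of -0.16, with 38 of the 50 below 0 and 0 of the 50 lower than KMT2E. Less this median, the KMT2E ratio was -0.48, which no longer reaches 1.5-fold. The other compared enzymes of chromosome 7 were KMT2C (-0.25), EZH2 (-0.05) and KDM7A (-0.02), so that 4 of 4 were below 0, and the medians of their nearest 50 genes were -0.14, -0.18 and -0.19.

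**Figure D3:**
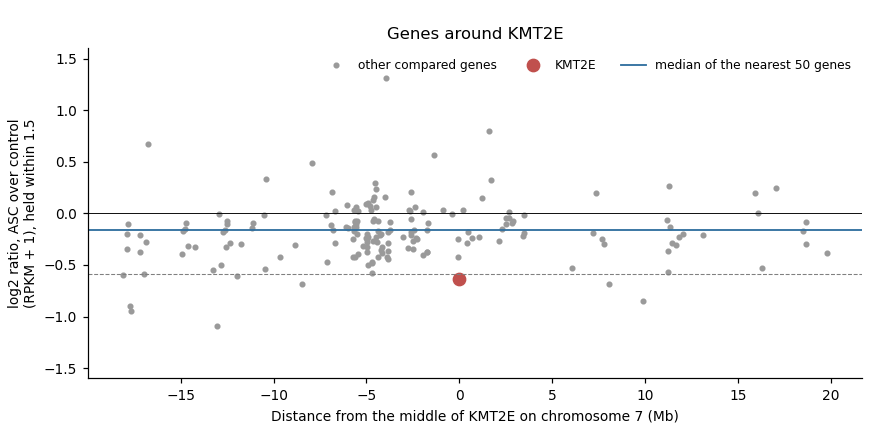
Log2 ratio of RPKM + 1, ASC over control (y), of compared genes by their distance in Mb from the middle of KMT2E (x); the blue line is the median of the nearest 50 genes (-0.16) and the dashed line marks 1.5-fold lower. Most neighbours lie below 0, and KMT2E (red) is the lowest among its nearest 50.

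SUV39H2 (ENSG00000152455.15), which trimethylates lysine 9 of histone H3 in heterochromatin, had 1810 reads and 28.2 RPKM with ASC against 1308 reads and 20.8 RPKM in the control. Its ratio of 0.43 (0.36 to 0.57) was the highest of all compared members. SUV39H2 shares 159 exon bases with DCLRE1C on the other strand, which stood at 4.89 and 3.59 RPKM, a ratio of 0.36, and the median of its nearest 50 genes was 0.11. Its 3 main transcripts held similar shares in both libraries, the first (ENST00000354919.10) 48.9% with ASC and 49.5% in the control. Its paralog SUV39H1 stood at 6.71 and 6.49 RPKM, a ratio of 0.04.

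KMT5B, which adds further methyl groups to lysine 20 of histone H4, stood at 28.6 RPKM with ASC and 23.3 in the control (2628 and 2284 reads), a ratio of 0.28 (0.11 to 0.28), and its highest transcript alone gave 0.53. The most abundant lysine methyltransferases were SETD5 and KMT5A. SETD5, another SET domain protein, stood at 43.4 and 44.4 RPKM (6586 and 6756 reads; -0.03, with an interval of -0.09 to 0.01). KMT5A, which sets the first methyl group on lysine 20 of histone H4, stood at 40.1 and 36.1 RPKM (3255 and 2805 reads; 0.15, with an interval of 0.14 to 0.28), and some of its reads are assigned by estimate between it and copies such as SETD8P1. The remaining 20 lay between -0.28 (EHMT2) and 0.21 (SETD7).

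The arginine methyltransferases had the narrowest spread of ratios among the classes, from -0.14 to 0.11, with 4 of 7 above 0. Only 2 of 7 intervals excluded 0, beside 55.5% of all compared genes. PRMT1, which carries out most asymmetric arginine methylation in cells, was the most abundant member of all, at 161.8 RPKM with ASC and 151.3 in the control (7515 and 7087 reads; 0.10, with an interval of 0.03 to 0.13). PRMT5, the main symmetric arginine methyltransferase, stood at 59.4 and 56.4 RPKM (0.07, with an interval of -0.01 to 0.11). PRMT9, which methylates a splicing factor, had 2.65 and 3.03 RPKM (282 and 305 reads; -0.14, with an interval of -0.36 to 0.12). PRMT2 had 25.1 and 27.2 RPKM (-0.11, with an interval of -0.26 to -0.04), but taken from the highest transcript alone its ratio was 0.07. PRMT6 (0.11), PRMT3 (0.05) and PRMT7 (-0.04) complete the class.

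The 8 acetyltransferases were split evenly around 0, 4 and 4, and their summed level was equal, at 109.8 RPKM with ASC and 109.6 in the control. KAT6A and KAT6B, closely related enzymes of the MYST family that acetylate histone H3, lay on opposite sides. KAT6A stood at 11.4 RPKM with ASC and 10.0 in the control (3665 and 3180 reads; 0.17, with an interval of 0.13 to 0.27). KAT6B stood at 2.92 and 3.56 RPKM (721 and 872 reads; -0.22, with an interval of -0.42 to -0.14). The median of the 50 genes nearest to KAT6A was 0.11 and that of KAT6B -0.06.

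KAT2A (GCN5), the acetyltransferase of the SAGA complex, stood at 22.3 RPKM with ASC and 25.6 in the control (2262 and 2566 reads; -0.19, with an interval of -0.27 to -0.11), while its paralog KAT2B was under 1 RPKM in both. KAT5 (TIP60), the enzyme of the NuA4 complex, stood at 26.3 and 24.0 RPKM (0.13, with an interval of -0.03 to 0.17). CREBBP (0.11) and EP300 (-0.03), the large coactivator acetyltransferases, KAT7 (0.10) and KAT8 (-0.10) complete the class.

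Of the 16 demethylases compared, 9 ratios were above 0 and 7 below, and 81.2% of the intervals excluded 0 (8 above and 5 below), beside 55.5% of all compared genes. The demethylases had a median length of 4804 bases, and 65.0% of all compared genes of at least 4000 bases had an interval that excluded 0. KDM6B, which removes methyl groups from lysine 27 of histone H3, stood at 5.54 RPKM with ASC and 4.08 in the control (995 and 825 reads; 0.36, with an interval of 0.13 to 0.40). KDM1B, a flavin-dependent demethylase of lysine 4, stood at 5.27 and 4.09 RPKM (535 and 408 reads; 0.30, with an interval of 0.20 to 0.57). KDM4C, a demethylase of lysine 9, was lower in the ASC library, at 3.93 against 4.94 RPKM (562 and 639 reads; -0.27, with an interval of -0.36 to -0.03), but its highest transcript alone gave -0.04.

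KDM5C, an X-linked demethylase of lysine 4, was the member with the most reads, 13436 with ASC and 11575 in the control. Its 73.1 and 65.5 RPKM gave a ratio of 0.16 and the narrowest interval of the members, 0.17 to 0.24. KDM1A (LSD1), the better known flavin-dependent demethylase, stood at 49.7 and 47.9 RPKM (0.05, with an interval of -0.04 to 0.08). The remaining 11 lay between -0.26 (KDM3A) and 0.23 (KDM5A). For KDM5A the sum of RPKM exceeds what the reads show, since the log2 ratio of its reads was 0.07.

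Of the 10 HDACs compared, 6 ratios were above 0 and 4 below, and their sum was 281.5 RPKM with ASC and 280.9 in the control. HDAC1 and HDAC2, closely related catalytic subunits of the SIN3, NuRD and CoREST complexes, were the most abundant. HDAC1 stood at 63.3 RPKM with ASC and 76.0 in the control (4622 and 5579 reads; -0.26, with an interval of -0.33 to -0.22). HDAC2 stood at 120.2 and 112.5 RPKM (8027 and 7613 reads; 0.09, with an interval of 0.02 to 0.12). The ASC library thus had less HDAC1 and slightly more HDAC2 RNA, and HDAC2 made up 65.5% of the RPKM of the pair with ASC and 59.7% in the control. HDAC11 stood at 9.96 and 7.27 RPKM (754 and 645 reads; 0.40, with an interval of 0.07 to 0.37), and its ratio was 0.21 on the scale of reads per library (CPM). HDAC6, the tubulin deacetylase, stood at 9.52 and 7.18 RPKM (890 and 711 reads; 0.36, with an interval of 0.17 to 0.46), and its highest transcript alone gave 0.16. The other 6 HDACs lay between -0.15 (HDAC5) and 0.12 (HDAC7).

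Of the 6 sirtuins compared, which are NAD-dependent deacylases, 4 ratios were above 0 and 2 below. SIRT6, a nuclear deacetylase of histone H3, had 450 reads and 8.99 RPKM with ASC against 599 reads and 12.4 RPKM in the control, a ratio of -0.42 (-0.60 to -0.24). The gene lies at chr19:4174109-4182604 on the minus strand, and its nearest 50 genes had a median of -0.17. SIRT3, the main mitochondrial deacetylase, was higher with ASC, at 7.61 against 6.10 RPKM (464 and 358 reads; 0.28, with an interval of 0.17 to 0.57). It shares 316 exon bases with the proteasome gene PSMD13 on the other strand, which at 66.9 and 55.0 RPKM had the same ratio, 0.28. SIRT1 stood at 9.78 and 9.03 RPKM (0.10, with an interval of 0.09 to 0.31), and SIRT7, a nucleolar enzyme, at 6.29 and 5.70 RPKM (0.12, with an interval of -0.07 to 0.34). SIRT2 (-0.11) and SIRT5 (0.04) complete the class.

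Writers and erasers were close to each other in both libraries. Writers had a median ratio of -0.03, with 18 of 40 above 0, and erasers of 0.05, with 19 of 32 above 0, beside 52% of all compared genes. The difference of both medians was -0.08 and ranged from -0.12 to -0.03 over the alternatives run, with no test. Summed over genes, writers came to 814.3 RPKM with ASC and 798.9 in the control, and erasers to 629.3 and 615.1 RPKM. The quotient of writers over erasers was therefore 1.294 with ASC and 1.299 in the control. It was 2.33 and 2.39 for the methylation enzymes and 0.336 and 0.335 for the acetylation enzymes. The methylation writers include 7 arginine methyltransferases, at 297.2 and 285.4 RPKM, whereas the methylation erasers are lysine demethylases only. The lysine methyltransferases alone came to 407.4 RPKM with ASC and 403.9 in the control, beside 302.5 and 288.0 RPKM for the demethylases. The sums of writers and erasers also count members that act outside chromatin, such as SETD3, HDAC6 and SIRT3. They count KMT2E too, whose own activity is not established. PRMT1 alone held 161.8 and 151.3 RPKM of the writers, and HDAC2 120.2 and 112.5 RPKM of the erasers.

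When the methylation enzymes were divided by the residue they mainly act on, the groups were small and their values are given mark by mark. An enzyme that acts on further residues was still counted only under its main residue. All 5 erasers of lysine 4 of histone H3 (KDM1A, KDM1B, KDM5A, KDM5B and KDM5C) were above 0, beside 52% of all compared genes. Their median was 0.16, and their sum 155.1 RPKM with ASC and 141.8 in the control. Intervals lay above 0 for 4 of these 5, beside 28.5% of all compared genes. Less the median of the nearest 50 genes, KDM5B was at -0.01 and KDM1A at 0.04. On that scale KDM5C was at 0.13, KDM5A at 0.19 and KDM1B at 0.25. In reads, the ratio of KDM5A was only 0.07. Of the 7 writers of that residue, 2 were above 0 (SETD7 at 0.21 and KMT2D at 0.04) and 5 below (KMT2A, KMT2B, KMT2C, SETD1A and SETD1B), with a median of -0.07 and sums of 57.6 and 58.6 RPKM. KMT2B is a case where scales differ, since its ratio was -0.17 in RPKM and 0.01 in reads.

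Of the 6 erasers of lysine 9, 5 were below 0 and only KDM4A (0.15) above, with a median of -0.18 and sums of 63.0 and 66.1 RPKM. All 6 intervals excluded 0, beside 55.5% of all compared genes. Of the 5 below 0, KDM4D was compared through its control value only. Less the median of the nearest 50 genes (-0.19 for both), KDM4B was at 0.04 and KDM3A at -0.07. The writers of lysine 9 were split 3 and 3. SUV39H2 was the highest of them, and EHMT1 (27.2 and 30.7 RPKM, -0.17) and EHMT2 (19.7 and 24.1 RPKM, -0.28), which together place the first and second methyl group, were both lower in the ASC library.

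For lysine 27, the Polycomb writers EZH1 (-0.21) and EZH2 (-0.05) were both below 0, and the erasers were KDM6A (-0.07), KDM6B (0.36) and KDM7A (-0.02). The KDM6A ratio depends on the scale, since its reads (2989 with ASC and 2767 in the control) gave 0.11, with an interval of 0.03 to 0.18. For lysine 36, the assigned writer SETD2 (0.13) and the assigned erasers KDM2A (0.09) and KDM2B (0.10) were above 0. Enzymes counted under another residue are left out of this. The 3 writers of lysine 20 of histone H4 summed to 75.7 RPKM with ASC and 66.6 in the control, with KMT5C at -0.02. These groups hold 1 to 7 genes each, and their counts describe both libraries without a test.

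**Figure D4:**
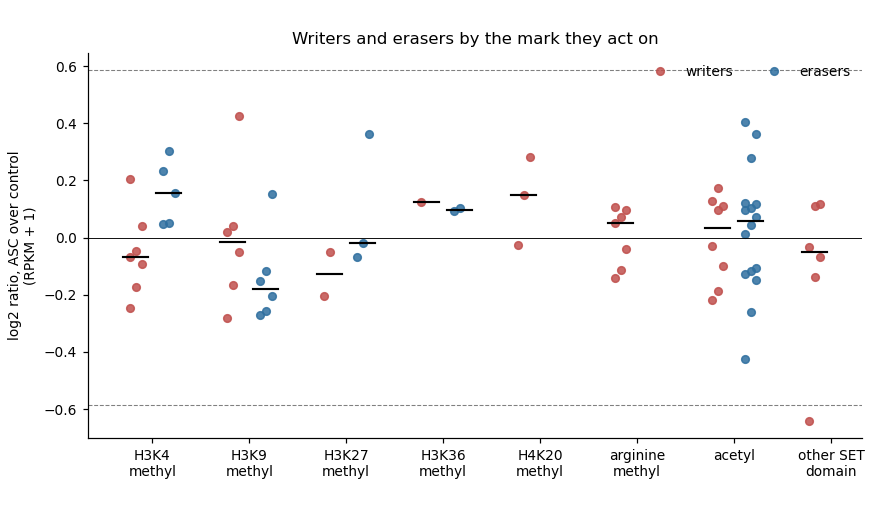
Log2 ratio of RPKM + 1, ASC over control (y), of each compared writer (red) and eraser (blue) by the mark it acts on (x); black bars are group medians and dashed lines mark 1.5-fold. The 5 H3K4 erasers all lie above 0 and 5 of the 6 H3K9 erasers below it. Medians of neighbouring genes are not subtracted here, and with them subtracted KDM5B lay at -0.01.

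Paralogs were set side by side. Of 18 pairs listed from sequence families, both members were compared in 17. In 8 of these 17 the ratios had opposite signs, where 52% of all compared genes lie above 0, so the count is no result about paralogs. HDAC1 and HDAC2, KAT6A and KAT6B, and KDM4A and KDM4C were opposite in sign with both intervals away from 0. HDAC4 (0.01) and HDAC5 (-0.15) were opposite in RPKM, but the log2 ratio of reads was -0.19 for HDAC4 and -0.16 for HDAC5. KDM4A stood at 25.2 RPKM with ASC and 22.6 in the control, against 3.93 and 4.94 for KDM4C. In the KMT2C and KMT2D pair, which monomethylate lysine 4 at enhancers, KMT2D made up 66.5% of the summed RPKM with ASC and 61.2% in the control. SUV39H2 made up 80.8% and 76.2% of the SUV39H pair. The pair sums were closer for HDAC1 and HDAC2 than the single levels. HDAC1 with HDAC2 came to 183.5 and 188.5 RPKM, and KAT6A with KAT6B to 14.3 and 13.6 RPKM.

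Transcript use was compared as the share of a gene's RPKM that each of its transcripts held, in genes with at least 100 reads. Transcripts with at least 20 reads over both libraries together were considered. In 17 of 71 members (23.9%) such a transcript differed by 10 percentage points or more, beside 20.6% of 10385 genes. By shares of reads this held for 15 members, beside 15.3%. The median of the largest difference per gene was 5.46 points in the members and 5.14 in all genes. The 17 genes held 19 such transcripts. Reads of similar transcripts are divided among them by estimate, and the counting intervals do not cover that error.

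The KAT5 transcript ENST00000377046.7, which contains the exon of 156 bases printed above, held 25.3% of the gene's RPKM with ASC and 37.8% in the control. Over all annotated transcripts that span the exon, those with it came to 7.60 RPKM with ASC and 9.66 in the control, and those without it to 16.9 and 12.7 RPKM. Inclusion was thus 30.98% and 43.3%. The exon lies in the region before the catalytic domain, and the product without it is known as TIP60 beta. No exon of another gene lies on the other strand at this position, although KAT5 shares 1439 exon bases elsewhere with RNASEH2C, which stood at 28.7 and 28.6 RPKM.

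In HDAC11, transcripts with the printed cassette exon held a smaller share with ASC. The transcript ENST00000295757.7 held 23.4% of its RPKM with ASC and 38.4% in the control, and its printed exon of 117 bases was included at 66.4% and 83.1%. Transcripts with the exon stood at 6.28 and 5.91 RPKM and those without it at 3.18 and 1.201 RPKM, so that most of the higher HDAC11 level in the ASC library lay in transcripts without it. Inclusion of a neighbouring exon of 77 bases was 71.2% and 85.4%, and of one of 43 bases 64.0% and 75.6%. Across the members, 19 of 322 such cassette exons (5.90%) differed by at least 10 points, in 9 genes, beside 5.58% of 32627 in all genes. Of these 9 genes, only KAT5 and HDAC11 had lower inclusion with ASC. Inclusion was higher with ASC for such exons of KDM6A, PRMT9, HDAC10, KDM5A, SUV39H2, SIRT2 and HDAC7. The largest difference was that of a KDM6A exon, at 81.8% with ASC and 61.6% in the control. Exons are not separate events here. Many of the 19 are KDM5A exons with the same level of transcripts that skip them, 0.351 RPKM with ASC and 1.47 in the control.

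Other demethylase transcripts differed as well. The KDM6A transcript ENST00000377967.8 held 39.2% with ASC and 24.4% in the control (1369 and 897 reads). For KDM3A, ENST00000409064.5 held 51.2% and 65.4% (741 and 1158 reads). For KDM3B, a transcript annotated as a target of nonsense-mediated decay, ENST00000510866.5, held 30.4% and 19.9% (1242 and 888 reads). In KDM5A the short processed transcript ENST00000540838.1 held 26.4% and 12.1% of the RPKM from only 64.8 and 25.0 reads, or 1.71% and 0.699% of the gene's reads. Protein-coding transcripts made up 66.9% of KDM5A's RPKM with ASC and 83.1% in the control.

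Among the writers, a KAT8 transcript with a retained intron (ENST00000539683.2) held 49.95% with ASC and 37.2% in the control (258 and 207 reads), and KMT2B's long coding transcript ENST00000420124.2 held 86.1% and 72.8%. In PRMT9, the full coding transcript ENST00000322396.6 held 43.6% and 27.2% (145 and 104 reads), and a decay target, ENST00000514886.1, 53.5% and 64.4%. The others were transcripts of KDM6B, KDM4C, KAT6B, SETD9, KMT5C, HDAC8, SIRT2 and SIRT5.

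**Figure D5:**
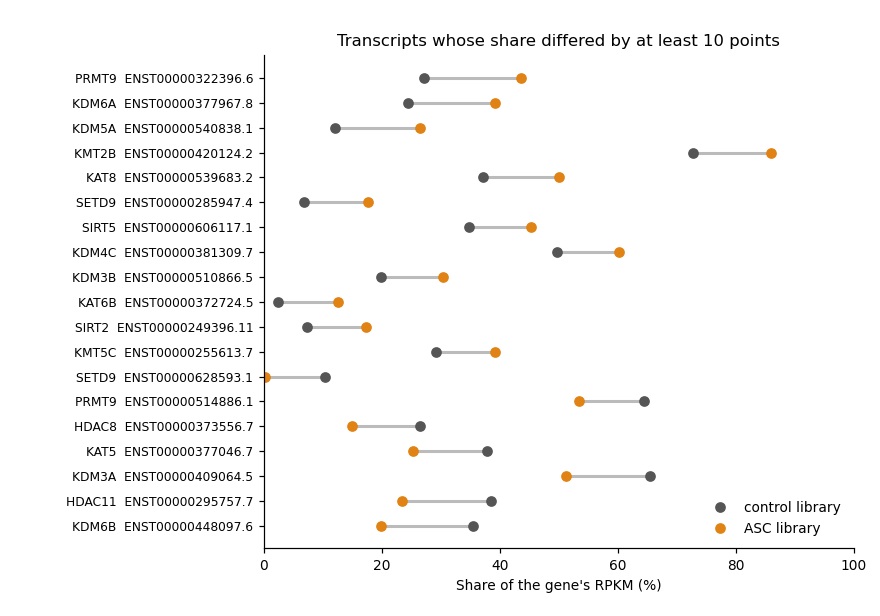
Share of each gene's RPKM held by a transcript (x, percent) in the control library (grey) and the ASC library (orange), for the 19 transcripts of 17 members that differed by at least 10 points. The share was higher with ASC for the upper rows, down to KMT5C, and lower for the rest, with HDAC11 and KDM6B at the bottom.

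Genes of the same pathways outside the naming rule were taken from lists made by role. Of 67 compared, 37 were above 0 and 30 below, beside 52% of all compared genes above 0, and the median was 0.02. In either direction 0 passed 1.5-fold, beside 4.19% of all compared genes. The methyltransferases among them had a median of -0.12 over 10 genes. NSD3, a methyltransferase of lysine 36, stood at 25.8 RPKM with ASC and 18.8 in the control (0.43), and SMYD3 at 14.2 and 10.8 (0.36). The demethylases had a median of -0.13 over 8 genes, with JMJD1C, a relative of KDM3A, at 12.8 and 18.4 RPKM (-0.49) and KDM8 at 0.961 and 1.27 RPKM (-0.21). KDM8 was compared through its control value only, and its 74 and 78 reads gave an interval of -0.56 to 0.40. The acetyltransferases had a median of 0.15 over 6 genes, with NAA60 at 15.6 and 11.8 RPKM (0.37) and KAT14 at 8.47 and 6.41 (0.35).

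Subunits of the complexes in which the members work were listed too, and 0 of them passed 1.5-fold, beside 4.19% of all compared genes. The counts above 0 that follow stand beside 52% of all compared genes. Of 9 PRC2 subunits, which work with EZH1 and EZH2, 5 were above 0, with RBBP7 at 215.8 and 172.9 RPKM (0.32) and JARID2 at 2.82 and 3.39 (-0.20). Of 8 genes listed for COMPASS, the complex of the KMT2 enzymes, 4 were above 0, with ASH2L at 17.1 and 12.5 RPKM (0.42) and DPY30 at 49.9 and 60.8 (-0.28). That list includes KANSL1 (-0.13), which is not a COMPASS subunit. Of 8 subunits of acetylation complexes 5 were above 0, with BRPF1 at 11.9 and 9.70 RPKM (0.27) and ING3 at 10.3 and 8.87 (0.20). Of 10 subunits of deacetylase complexes 8 were above 0. Their ratios ran from -0.07 to 0.16 with a median of 0.08, with SIN3A at 16.7 and 14.8 RPKM (0.16). Of 8 readers, proteins that bind the marks, 5 were above 0. The heterochromatin protein gene CBX3 was the lowest of them at 157.9 and 207.0 RPKM (-0.39), and CBX1 stood at 34.4 and 30.97 (0.15).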

How the data were processed

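Poly(A) RNA of 2 samples was sequenced, 1 per group. Per the file headers, the deposited values are fractional estimated counts and RPKM for every transcript and library. The submitters' processing notes name hg38. The aligner and quantifier are not stated there. Identifiers of transcripts matched GENCODE release 29 (98.4% with the same version). Of 285 gene names turned into dates, 284 were restored.

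RPKM and reads were summed per gene, and genes reaching 1 RPKM in at least 1 library were compared, with a pseudocount of 1 RPKM. Intervals are 95% exact (Clopper-Pearson) binomial intervals of the rounded estimated counts, scaled to listed reads. Members, roles, pairs and lists were chosen with earlier results of these data known. Values are given for members past 1.5-fold, the 3 largest absolute ratios and the 2 most abundant of each class, the pairs, and the 2 largest absolute ratios of each related list. A gene that this rule names is not reported here. Members named for a mark, chromosome 7 or transcript use were named after their values were seen. The intervals leave out preparation error, as PCR copies are not independent molecules.

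Alternatives were pseudocounts of 0.1 and 3, no filter, a filter at 5 RPKM, centring, TMM scaling of rounded estimated counts with edgeR 4.0.16, CPM, the highest transcript, protein-coding genes only, a removed length trend, the neighbour median (of the nearest 50 genes) subtracted and shares of reads. A removed GC trend was chosen after seeing the data. The procedure was tested on simulated data. Python 3.11.15, pandas 2.3.3, numpy 2.4.6 and scipy 1.17.1 were used.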

Additional observations from a re-analysis of the deposited data

How the results depend on the processing

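No paired analysis was possible because each group has 1 library, and for the same reason no replicate could be left out. No member passed 2-fold under any alternative run. The count past 1.5-fold was 1 (KMT2E), and it was 0 with a pseudocount of 3 RPKM, with the highest transcript and with the neighbour median subtracted, where the KMT2E ratio was -0.52, -0.55 and -0.48. That pseudocount shrinks the ratio by construction. The subtraction does not, and it moved PRMT2 further from 0, from -0.11 to -0.23. For KMT2E it took off the median of its nearest 50 genes, -0.16. For the highest transcript the cause was not tested. Over the alternatives run, the members' median ranged from -0.01 to 0.05, that of writers from -0.09 to 0.03 (above 0 only with the highest transcript), that of erasers from 0.03 to 0.09 and their difference from -0.12 to -0.03. Among the single genes the text gives, 302 values moved by less than the interval's width to either side, 16 by more, and 3 (KMT2E) came under 1.5-fold. With the highest transcript SETD5 was at -0.17, KDM1A at 0.11, KMT5A at 0.25, KAT2A at -0.10, PRMT9 at -0.29 and SIRT3 at 0.15. With the neighbour median subtracted SUV39H2 was at 0.31, HDAC2 at 0.05, KAT6A at 0.06 and PRMT2 at -0.23. In that setting SETD5 was at -0.09, SIRT6 at -0.26 and SIRT7 at 0.02. By CPM, KDM5C was at 0.21 and KMT5B at 0.19. Of these values, those of PRMT9, SIRT3, SIRT6 and SIRT7 are not among the 16. Among members, low reads limit PRMT8, SIRT4, SETD8P1 and HDAC9 most, and they limit the transcript shares.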
